A study of Mus musculus with 18 samples.

Results

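The comparison described here set leukemic spleen cells against normal marrow progenitors of the mouse, across all genes with enough reads to test. Of 53946 genes in the count table, 16233 passed a filter on low counts, and 14140 of these lie on autosomes. These autosomal genes are the set described. Another 486 tested genes lie on X, 5 on Y and 15 on the mitochondrial genome, and 1587 could not be placed on a chromosome. Of the 18 samples of the series, 12 are RNA-seq libraries, and 6 of them enter the comparison. The WT group is 3 libraries of hematopoietic stem and progenitor cells (HSPCs) sorted from bone marrow of C57BL/6 mice. The AML group is 3 libraries of C-Kit+ cells sorted from the spleen of C57BL/6 mice that carry the Nup98-HoxD13 (NHD13) transgene and an Mx1-Cre-induced deletion of Setd2, taken at the leukemia stage. The groups therefore differ in the transgene, the deletion, disease stage, organ and sorted population, and no marrow library at the leukemia stage or spleen library of WT mice enters the comparison, so that these differences cannot be told apart. Mx1-Cre is driven by an interferon-inducible promoter and is active in tissues beyond blood. The age of the mice, how recombination was induced, the surface gate of the HSPCs and whether libraries of a group came from separate mice are not stated in the labels.

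NUP98-HOXD13 is a fusion protein found in human myeloid disease, and mice with the transgene develop a myelodysplastic syndrome that can progress to acute leukemia. Hematopoietic stem cells give rise to granulocytes, monocytes, red cells, platelets and lymphocytes through progenitors that switch on the genes of 1 lineage and switch off those of the others. The Setd2 enzyme trimethylates lysine 36 of histone H3 (H3K36me3) over the bodies of transcribed genes, and proteins that read this mark include DNA methyltransferases.

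The libraries held between 18673704 and 20577958 counted reads in AML and between 22115101 and 23767776 in WT. The median coefficient of variation of a gene over the 3 libraries was 3.50% in AML and 7.50% in WT. The AML libraries differed from each other by little more than counting noise (chi-square per degree of freedom 1.91 to 2.49), whereas WT replicate 1 stood apart from the other WT libraries (27.1 and 26.1, against 3.76 between replicates 2 and 3). Without that library the counts of called genes below were 6078 higher and 6150 lower. The groups also differ in sex: Xist lay between 125 and 229 CPM (counts scaled to a common library total) in WT and between 0 and 0.052 in AML, and Eif2s3y, a Y-linked gene, lay at 0 in WT and between 77.9 and 88.8 CPM in AML. Since the p-values rest on the spread between these libraries, they may measure technical spread alone.

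Setd2 itself was not low in the leukemic libraries. Its level, in CPM of the tested genes after scaling, was 45.2, 43.9 and 37.2 in the WT libraries and 183, 187 and 179 in the AML libraries. All AML libraries lay above all WT libraries, with a log2 fold change of 2.12 ± 0.08 (SE; edgeR adjusted p = 1.16e-14). Setd2 lies at chr9:110532500-110618633 (GRCm38) and the whole gene was counted. The deleted part of the gene is not stated in the labels and exons were not counted separately, so that this count does not check the genotype. Directions below therefore rest on the labels. Kit, the receptor used for the sort, was at 102, 100 and 99.0 CPM in WT and at 217, 216 and 211 CPM in AML, without overlap (log2 fold change 1.10 ± 0.06, edgeR adjusted p = 1.64e-12). After adjusting for gene length in the way described below (the length correction), the difference of Kit was 0.22 on the log2 scale and that of Setd2 was 1.17.

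Most tested genes differed between the groups. At an adjusted p below 0.05, 5961 of the 14140 autosomal genes (42.2%) were higher in AML and 6126 (43.3%) were lower, and 2053 were not called. Of these, 4133 (29.2%) were at least 2-fold higher and 4211 (29.8%) at least 2-fold lower. The median log2 fold change over all tested autosomal genes was -0.03. All AML libraries lay above all WT libraries for 6073 genes (42.9%) and below them for 6183 (43.7%). A call by itself thus says little about a single gene, and a share of a gene list that was called is to be read against these shares.

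**Figure D1:**
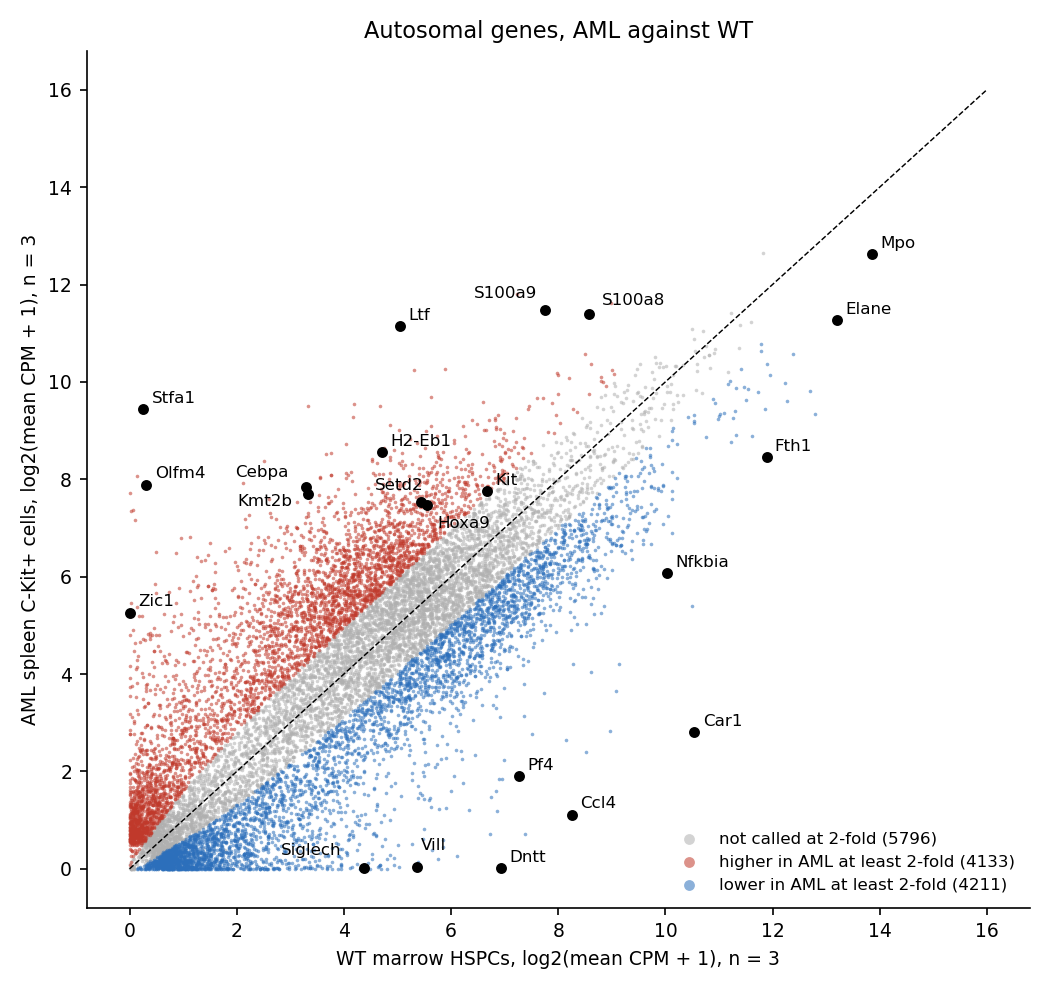
Mean level of each tested autosomal gene in the 3 WT libraries (x axis) and the 3 AML libraries (y axis), both as log2(mean CPM + 1), with genes called at least 2-fold higher in red and at least 2-fold lower in blue. Genes such as Stfa1, Zic1 and Ltf lie far above the dashed line of equal levels, and Dntt, Car1, Pf4 and Ccl4 far below it.

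The largest rises were of genes at or near 0 in the normal progenitors. They included 4 stefin genes, inhibitors of cysteine proteases that are clustered on chromosome 16, a pair of homeobox genes of the Hoxc cluster, and developmental transcription factors not usually named among blood genes. Zic1, a zinc finger factor of neural development, had no count in the WT libraries and stood at 36.5, 40.2 and 35.3 CPM in AML, at least 912-fold higher. Such bounds set a group without reads to 3 counts in all. Its neighbour Zic4 was at least 348-fold higher, from 0 in WT to 13.1, 13.7 and 15.7 CPM. Zfpm2, a cofactor of GATA factors, was at least 655-fold higher, and none of the 3 genes overlapped between groups. Zic1 had no count in the NHD13 and Setd2 KO marrow libraries of the series either, whereas Zfpm2 stood at a mean of 0.892 CPM in NHD13 and 4.65 CPM in the KO marrow. Lipg, an endothelial-type lipase, had 1 read over the WT libraries and 39.2, 43.6 and 45.4 CPM in AML, a ratio of 3140 with a 95% counting interval of 563 to 1.24e+05.

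Hoxc4 and Hoxc5, which sit side by side on chromosome 15, had no count in WT and rose at least 418-fold and at least 302-fold. Hoxc4 was at 16.5, 16.8 and 17.9 CPM and Hoxc5 at 12.8, 11.9 and 12.4 CPM in the AML libraries. In NHD13 and KO marrow the means were 2.76 and 9.74 CPM for Hoxc4 and 11.4 and 36.4 CPM for Hoxc5. Expression of the pair was thus not particular to the leukemic cells. Stefin genes were also among the largest rises: Stfa3 went from no count to 212, 203 and 210 CPM (at least 5091-fold), and Stfa1 from 0.155, 0.125 and 0.299 to 691, 675 and 727 CPM (log2 fold change 11.79 ± 0.19, adjusted p = 7.85e-18). Stfa1 was at a mean of 339 CPM in NHD13 marrow and 41.7 CPM in KO marrow, and Stfa3 at 12.6 and 5.37 CPM. Stfa2 and Stfa2l1 rose by 10.91 and 11.36 on the log2 scale. These 4 genes are close copies of each other, and how reads were divided among them is uncertain.

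The largest falls were led by Dntt, the terminal transferase that adds bases at the joints of antigen receptor genes in lymphoid progenitors. Dntt was at 107, 126 and 130 CPM in WT and at 0, 0.0426 and 0 CPM in AML, where it had 1 read in all (ratio 8702, 95% counting interval 1561 to 3.44e+05). Siglech, a surface lectin of plasmacytoid dendritic cells, went from 17.5, 20.9 and 21.1 CPM to 1 read in all (ratio 1429, interval 256 to 5.65e+04). The light chain segment Igkv14-126 had 15.3, 14.0 and 12.5 CPM in WT and no count in AML (at least 337-fold lower). Other genes among the largest falls have varied roles. Prss50 (at least 600-fold), the mitochondrial carrier Slc25a21 (at least 518-fold), Tmem159 (at least 454-fold), the histamine-degrading enzyme Hnmt (at least 452-fold), Macrod2 (at least 351-fold), the germ cell proteasome subunit Psma8 (at least 308-fold) and Tmem98 (at least 284-fold) had no count in any AML library. The villin-like gene Vill had 48.4, 35.5 and 36.4 CPM in WT and 2 reads over the AML libraries. Rps4l, also without a count in AML (at least 647-fold), is a copy of a ribosomal protein gene, and its reads may belong in part to other copies. In NHD13 and KO marrow the means were 1.43 and 0.157 CPM for Dntt and 0.158 and 0.297 CPM for Siglech. For Tmem98 they were 0.257 and 0 CPM. By contrast, they were 35.4 and 27.0 CPM for Slc25a21 and 58.2 and 29.9 CPM for Vill. Some of these falls were thus shared with the other marrow groups and others were not.

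Neutrophil genes divided by the stage at which granulocytes use them. Of 29 tested members of a list of granule and granulocyte genes, 24 rose and 5 fell. The list median was 2.83 on the log2 scale, and 4.10 with the length correction. The genes of secondary and later granules and of mature neutrophils were higher: lactoferrin (Ltf) stood at 37.7, 29.5 and 29.0 CPM in WT and at 2230, 2273 and 2265 CPM in AML, a 70.2-fold difference without overlap (log2 6.13 ± 0.10, adjusted p = 6.01e-19). Cd177, a neutrophil surface glycoprotein, went from 5.26, 4.78 and 4.02 to 326, 337 and 334 CPM. The integrin gene Itgb2l went from 1.12, 1.45 and 0.984 to 111, 114 and 110 CPM. In each of these 3 genes the AML libraries lay within a few percent of each other and far above WT. Fcnb, Camp, Ngp, Lcn2, Mmp8 and Mmp9 moved the same way, by 3.73 to 6.17 on the log2 scale, and Olfm4 by 9.88. In NHD13 marrow the means were 1638 CPM for Ltf, 258 for Cd177, 9854 for Camp and 16840 for Ngp. High levels of these 4 genes were thus not particular to the leukemic cells. In KO marrow their means were 84.7, 10.2, 352 and 464 CPM. Olfm4 stood at 6.12 CPM in NHD13 and 0.991 CPM in KO marrow, against 237 CPM in AML.

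The 5 members that fell are the proteases and peroxidase of the primary granules, made earlier in the lineage, and Ms4a3. Elane, the neutrophil elastase, fell from a mean of 9403 to 2478 CPM, Mpo from 14864 to 6327, Ctsg from 2818 to 945, Prtn3 from 2656 to 1659 and Ms4a3 from 884 to 288. The falls of Elane, Ctsg and Ms4a3 were smaller with the length correction (-0.49, -0.16 and -0.69 on the log2 scale), and Prtn3 then lay at 0.34. Summed over the list, the level was 31784 to 34661 CPM in WT and 30604 to 31052 CPM in AML, so that the groups differed in which neutrophil genes they contained more than in their sum. In bulk RNA, a change in how many cells of a type are present and a change in RNA per cell cannot be told apart. The calprotectin genes, which the title of the study names, were among the rises. S100a8 (chr3:90669071-90670034) was at 290, 454 and 400 CPM in WT and at 2738, 2566 and 2819 CPM in AML (log2 2.83 ± 0.17, adjusted p = 1.13e-08), and S100a9 at 158, 248 and 237 CPM against 2876, 2787 and 2834 CPM (3.72 ± 0.18, 1.33e-09). Neither overlapped between groups. S100a8 and S100a9 were higher still in NHD13 marrow, at means of 21170 and 17343 CPM, and stood at 2072 and 1256 CPM in KO marrow.

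**Figure D2:**
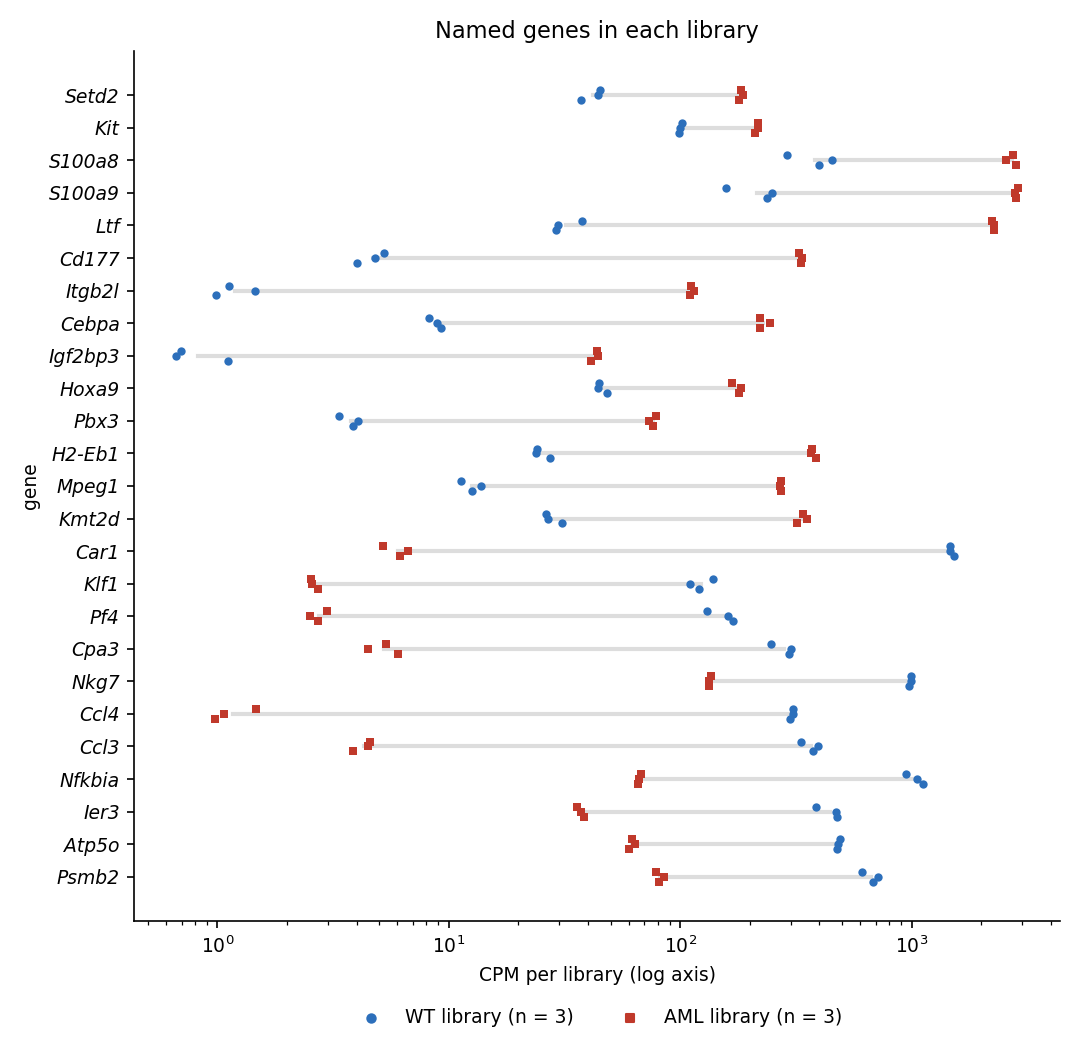
CPM of 25 of the genes described in each of the 3 WT libraries (blue circles) and 3 AML libraries (red squares), on a log axis, with a grey bar between the group means. For every gene drawn the groups do not overlap, as for 42.9% (AML above) and 43.7% (AML below) of all tested autosomal genes. Apart from Setd2, Kit, S100a8 and S100a9, the genes were picked by small p in these same libraries. The clear gap thus follows from the choice of genes.

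Receptors of growth factors and a pair of CEBP factors, the latter named after their values were seen, held large rises. Cebpa, the transcription factor that starts granulocyte development, was at 8.24, 8.89 and 9.28 CPM in WT and at 221, 243 and 221 CPM in AML (25.9-fold, log2 4.70 ± 0.09, adjusted p = 3.38e-18). Cebpe, which acts at the secondary granule stage, rose from 28.02 to 195 CPM. Of 26 receptors for growth factors and interleukins, 17 rose and 9 fell, with a median of 0.73 (0.50 with the length correction). The rises included Csf2rb (log2 2.85), Csf2ra (2.86), Csf3r (1.37) and Il6ra (3.27), which serve GM-CSF, G-CSF and IL-6. The falls included Epor (-2.46) and Il1rl1 (-2.96), the receptors for erythropoietin and IL-33. Csf2rb2, a near copy of Csf2rb, rose by 4.04, and reads of the copies may be mixed.

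Monocyte and macrophage genes did not move as a block. Of 22, 12 rose and 8 fell (median 0.52; 0.64 with the length correction). Mpeg1, which encodes a pore-forming protein of phagocytes, went from 11.3, 13.7 and 12.6 to 273, 269 and 273 CPM (log2 4.43 ± 0.12). Klf4 went from 6.19, 6.40 and 6.03 to 37.3, 38.8 and 35.5 CPM. Ms4a6c fell from 92.8, 116 and 119 to 26.1, 24.7 and 29.997 CPM, and Cd14, Cx3cr1 and Ly6c2 fell by 1.71, 1.65 and 1.15 on the log2 scale. The summed level of the list was 2048 to 2363 CPM in WT and 1854 to 1878 CPM in AML.

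The AML libraries come from spleen, so cells resident there were checked through their markers. Of 9 tested genes of red pulp macrophages, 6 rose and 2 fell, and another, Marco, was too low to test. Treml4 went from 0.425, 0.415 and 0.556 to 6.12, 6.73 and 6.90 CPM, and Hmox1 from 5.07, 3.20 and 4.11 to 11.7, 12.3 and 12.7 CPM. The defining factor Spic fell from 2.09 to 0.668 CPM, and the summed level of the list was 53.5 to 56.5 CPM in WT and 75.8 to 78.1 in AML. Slc40a1 had a log2 fold change of 0.57 as fitted and of -0.31 with the length correction. Of 10 tested genes of stroma and endothelium, 5 rose and 5 fell, and Cdh5, Col3a1, Pdgfra, Lepr, Dcn and Lum were too low to test. Their median was 0.21 as fitted, -0.65 with the length correction, and 1.36 to 1.49 without any 1 of the WT libraries or AML replicate 3. The summed level of this list was 72.9 to 76.7 CPM in WT and 166 to 171 CPM in AML, made up mainly of Pecam1 (34.7, 41.4 and 37.2 against 101, 104 and 100 CPM) and Pdgfrb (20.9, 15.9 and 18.6 against 58.6, 62.0 and 60.0 CPM). What share of the other differences comes with these cells was not tested.

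Genes of stem cells and of the HOX program moved in opposite directions. Of 30 stem cell surface and transcription factor genes, 19 fell and 6 rose, with a median of -1.32 (-1.39 with the length correction). Ctla2a fell from 312, 316 and 301 to 19.9, 14.5 and 17.7 CPM (log2 -4.15 ± 0.09, adjusted p = 5.56e-18), and Gfi1b, a repressor needed in red cell and platelet development, from 113, 106 and 119 to 8.49, 9.37 and 8.82 CPM. Procr, Ly6a and Slamf1, surface proteins used to enrich stem cells, had log2 fold changes of -2.61, -2.56 and -2.15, and the angiopoietin receptor Tek of -5.75. The 6 that rose were Kit, Hoxb4, Mecom, Hoxa9, Erg and Mycn. Erg went from 23.2, 21.8 and 19.2 to 114, 110 and 108 CPM and Mycn by 2.43 on the log2 scale, both factors with known roles in leukemia.

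Of 28 genes of the Hox, Meis and Pbx families, 20 could be tested, and 15 of them rose and 3 fell, with a median of 2.97 (3.70 with the length correction). Without single libraries this median ran from 2.52 to 3.07. Hoxa9 went from 44.5, 44.3 and 48.2 to 168, 183 and 179 CPM (log2 1.95 ± 0.06, adjusted p = 1.02e-15). Hoxa3, Hoxa5 and Hoxa6 rose by 5.77, 3.38 and 5.40, and Hoxc6, at a mean of 0.0855 CPM in WT, by 7.53. The cofactor Pbx3 went from 3.36, 4.07 and 3.85 to 78.6, 73.3 and 76.1 CPM, and Pbx2 from 2.86, 3.45 and 4.92 to 97.5, 93.4 and 91.3 CPM. By contrast, the cofactor Meis1 fell from 62.7 to 12.4 CPM. Hoxa10 was not called (7.25 against 7.81 CPM). The mouse gene Hoxd13 was too low to test, and so were Hoxa11, Hoxa13, Hoxb2, Hoxb3, Hoxb5, Hoxb8 and Meis2. Whether reads of the transgene would be counted at Hoxd13 was not checked, so its count does not measure the transgene.

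Erythroid genes were among the deepest falls. Of 30 tested members of the list, 21 fell and 6 rose, with a median of -2.19 (-1.59 with the length correction). Carbonic anhydrase 1 (Car1) fell from 1471, 1466 and 1528 to 5.21, 6.69 and 6.12 CPM, 247-fold without overlap (log2 -7.95 ± 0.12, adjusted p = 3.19e-19). Klf1, the factor that drives red cell genes, fell from 138, 111 and 120 to 2.54, 2.55 and 2.73 CPM. The rises included parts of the membrane skeleton that other cells also use, Epb41 and Sptb (1.68 and 1.72), and the transferrin receptor Tfrc (1.22). Hbb-bt rose by 1.76 while Hba-a1 and Hbb-bs fell by 4.56 and 2.72, and globin copies share reads. Summed over the list, the level was 4092 to 4383 CPM in WT and 688 to 704 CPM in AML.

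Heme enzymes and iron genes, of which red cells use the most, followed in part. Of 18 tested, 11 fell and 6 rose (median -0.89; -0.75 with the length correction). Blvrb fell from 214, 206 and 218 to 11.2, 10.6 and 11.9 CPM, Alad from 175, 150 and 164 to 12.5, 12.7 and 13.5 CPM, and the ferritin heavy chain Fth1 from 3709, 3756 and 3898 to 341, 359 and 348 CPM. The mitochondrial iron importer Slc25a37 went the other way, from 15.2 to 151 CPM. Of 18 tested megakaryocyte and platelet genes, 12 fell and 4 rose (median -1.62; -1.19 with the length correction). Platelet factor 4 (Pf4) fell from 131, 162 and 170 to 2.97, 2.51 and 2.73 CPM. Nbeal2, needed for platelet granules, rose from 11.9, 12.5 and 13.2 to 270, 279 and 270 CPM, and Thbs1 from 12.4, 10.5 and 10.1 to 106, 109 and 106 CPM. The summed level of the list was 576 to 587 CPM in WT and 585 to 595 CPM in AML. Gp6 and Tubb1, 2 platelet markers, were too low to test.

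Most tested B, T and NK cell genes were lower in AML. Of 17 tested B lymphoid genes, 13 fell and 3 rose (median -3.04; -3.61 with the length correction). The surrogate light chain genes Igll1 and Vpreb1, made by early B progenitors, fell from 20.9, 19.7 and 25.8 to 0.215, 0.170 and 0.0780 CPM and from 10.1, 12.5 and 13.5 to 0.172, 0.213 and 0.195 CPM. The B cell factor Ebf1 fell from 3.50 to 0.0260 CPM. The 3 that rose were Pax5, Cd37 and Bank1, by 1.86, 0.50 and 0.62 on the log2 scale. Among T and NK cell genes, 11 of 18 tested fell and 3 rose (median -1.54; -0.93 with the length correction). Nkg7 fell from 996, 995 and 976 to 136, 133 and 133 CPM and Gzmb from 20.9, 21.9 and 27.2 to 0.905, 0.724 and 0.234 CPM. Cd3e, Cd3g, Cd8b1 and Zap70 were too low to test, and the summed level of the T and NK list was 1066 to 1087 CPM in WT and 166 to 171 CPM in AML.

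In all AML libraries the same 2 heavy chain and the same 2 kappa chain variable segments held most of the reads of their family. The 185 Ighv segments of the table took 6198 to 6812 reads per library in AML and 695 to 773 in WT. In AML, Ighv1-26 held 60.0% to 61.2% of these reads and Ighv7-1 held 32.5% to 33.4%, whereas the first 2 segments held 21.2% to 28.9% in WT. Among the 160 Igkv segments, Igkv4-61 held 58.9% to 61.3% and Igkv1-110 held 32.6% to 34.6% in AML. The first 2 segments of WT held 48.4% to 79.5%. Segments resemble each other and reads may be shared among them. Beside this, of 9 tested genes of plasma cells, a list added after the segments had been seen, 6 rose and 3 fell. The constant regions Ighm and Igkc rose from 254 to 1125 CPM and from 52.4 to 472 CPM, while Mzb1, Sdc1 and Xbp1 fell by 2.03, 1.19 and 0.89 on the log2 scale. Tnfrsf17 was too low to test.

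Dendritic cell and MHC class II genes moved both ways. Of 20 dendritic cell and MHC class II genes, 11 rose and 8 fell (median 1.10; 0.90 with the length correction). H2-Eb1, a chain of the class II molecule, went from 24.1, 23.9 and 27.4 to 373, 368 and 386 CPM (log2 3.90 ± 0.09, adjusted p = 1.30e-17). The other class II pathway genes H2-Aa, H2-Ab1 and Cd74 rose by 2.46, 2.51 and 1.99, and Ciita, their master regulator, from 0.952 to 36.4 CPM. Itgax (CD11c), a dendritic cell integrin, went from 1.04, 0.955 and 0.855 to 33.1, 32.0 and 28.01 CPM, and Clec9a, a receptor of cross-presenting dendritic cells, from 0.448 to 23.0 CPM. A pair of genes that load class II molecules fell instead: H2-DMa from 257, 249 and 256 to 61.0, 68.7 and 66.1 CPM, and H2-DMb1 by 0.85 on the log2 scale. The fall of H2-DMb1 became a difference of 0.32 with the length correction. Summed, this list was at 922 to 963 CPM in WT and 2039 to 2118 CPM in AML.

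Mast cell, basophil and eosinophil genes fell in 12 of 17 tested members and rose in 2 (median -2.70; -1.48 with the length correction). Cpa3, a protease of mast cells, fell from 247, 300 and 297 to 5.34, 4.47 and 6.01 CPM. The basophil proteases Prss34 and Mcpt8 fell from 126, 102 and 115 to 1.38, 1.02 and 1.44 CPM and from 100, 112 and 98.9 to 14.4, 12.1 and 14.2 CPM. Mcpt4, Tpsb2 and Tpsab1, markers of mature mast cells, were too low to test. The summed level of this list was 1061 to 1142 CPM in WT and 390 to 408 CPM in AML.

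**Figure D3:**
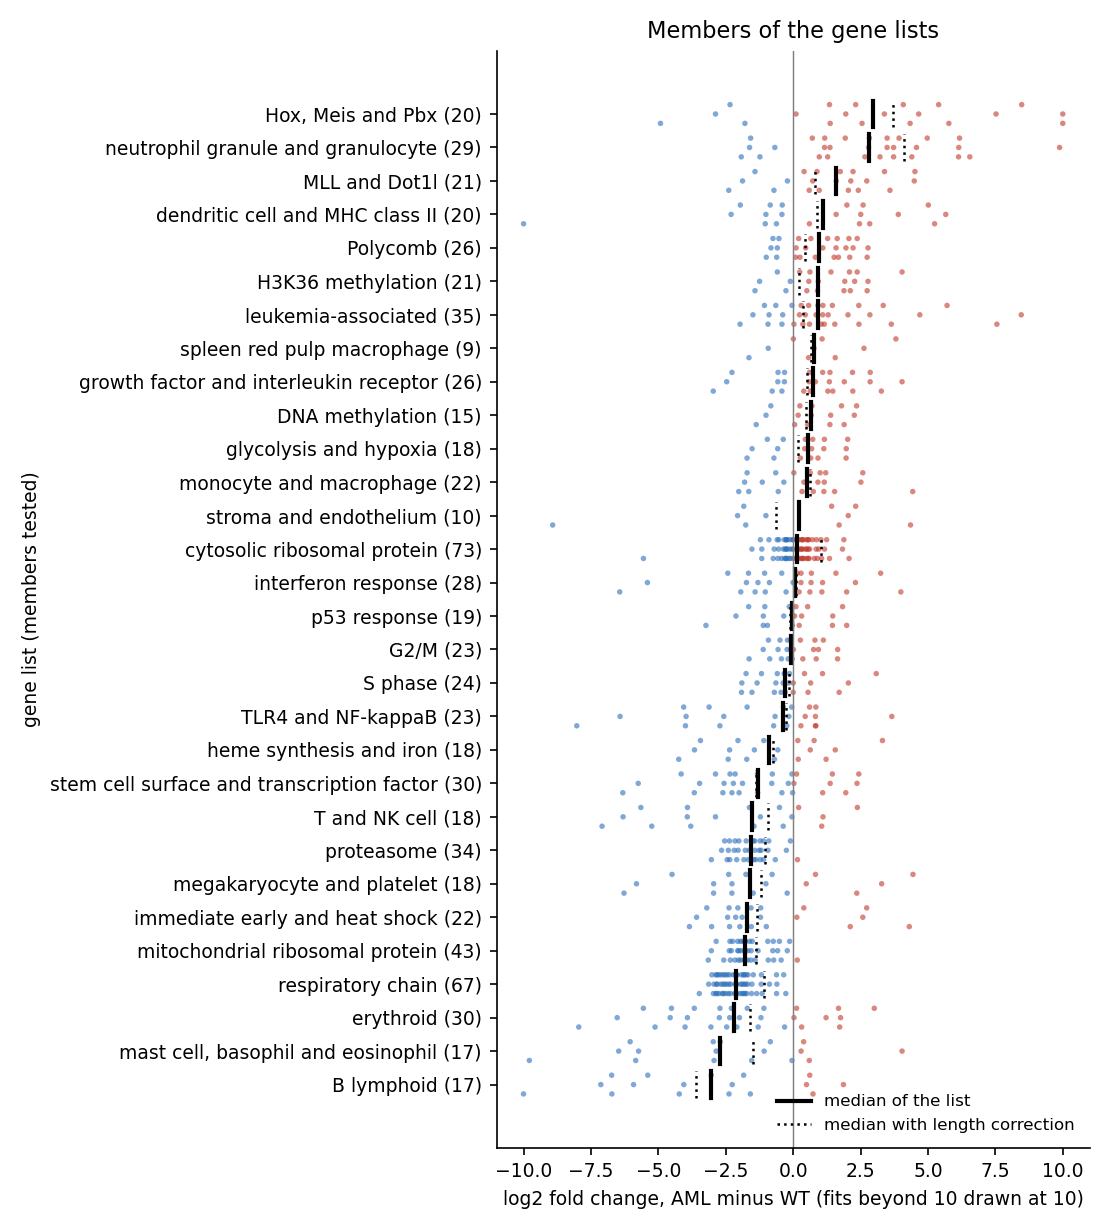
Log2 fold change (AML minus WT) of every tested member of 30 gene lists, red above 0 and blue below 0 whether or not the member was called, with the list median as a solid bar and the median with length correction as a dotted bar. Lists of erythroid, B lymphoid, mast cell and respiratory chain genes lie to the left, and neutrophil and Hox genes to the right.

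Genes tied to the writing, reading or removal of histone and DNA methylation were mostly higher in AML, and most of them are long genes. Of 21 genes of H3K36 methylation and its readers, 16 rose and 4 fell, with a median of 0.93. With the length correction the median was 0.20, with 10 higher and 6 lower. The H3K36 methyltransferases Nsd2 and Nsd3 went from 35.0, 39.3 and 36.8 to 159, 158 and 155 CPM and from 25.1, 29.0 and 26.2 to 131, 135 and 124 CPM. The demethylase Kdm4a rose from 7.07 to 116 CPM, and the reader Psip1 fell from 191 to 71.5 CPM. Of 15 DNA methylation genes, 10 rose and 3 fell (median 0.67; 0.48 with the length correction): Dnmt3b went from 39.2, 37.7 and 35.97 to 133, 132 and 127 CPM and Tet3 from 34.7, 26.8 and 26.8 to 144, 146 and 136 CPM. Idh1 and Idh2, whose product feeds the demethylases, fell by 1.37 and 1.01.

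Polycomb genes, which maintain silencing through H3K27 methylation, rose in 17 of 26 and fell in 5 (median 0.96; 0.45 with the length correction). Asxl1 went from 26.1, 21.3 and 24.4 to 124, 126 and 123 CPM and Suz12 from 29.9, 35.5 and 33.4 to 129, 128 and 127 CPM. Ezh2, the catalytic subunit, had a log2 fold change of 0.21. The MLL family and Dot1l methylate H3K4 and H3K79, and their list also holds genes that are not such methyltransferases, among them Ep300 and Dpy30. Of its 21 tested members, 16 rose and 5 fell (median 1.60, and 0.82 with the length correction). Kmt2d went from 26.3, 27.0 and 30.8 to 340, 354 and 319 CPM, and Setd1b from 4.02, 5.57 and 5.30 to 109, 117 and 108 CPM, with log2 fold changes of 3.59 and 4.49. With the length correction these were 2.44 and 3.49. Dpy30, a small subunit shared by the MLL complexes, fell from 246, 273 and 268 to 47.8, 52.6 and 49.97 CPM, and its gene model is short (974 bp, against 19887 bp for Kmt2d).

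Genes of mitochondria and of protein turnover were mostly lower. Of 67 tested genes of the respiratory chain, encoded in the nucleus, 66 fell and none rose, with a median of -2.12. With the length correction, 61 were lower and 1 was higher, and the median was -1.09. Atp5o, a subunit of ATP synthase, fell from 489, 483 and 476 to 62.1, 63.9 and 60.3 CPM (log2 -2.96 ± 0.06, adjusted p = 4.27e-18), and Sdhb, of succinate dehydrogenase, from 423, 433 and 448 to 61.3, 67.3 and 65.5 CPM. Together the list was at 25068 to 27096 CPM in WT and 6955 to 7118 CPM in AML. Of 43 mitochondrial ribosomal proteins, 41 fell and none rose (median -1.79), and of 34 proteasome subunits, 32 fell and none rose (median -1.55). With the length correction these medians were -1.39 and -1.04, and 37 and 30 members were lower, while 6 mitochondrial ribosomal genes and no proteasome gene were higher. Mrps14 fell from 299, 329 and 306 to 34.9, 35.5 and 34.9 CPM and the proteasome subunit Psmb2 from 609, 713 and 681 to 78.9, 85.0 and 80.7 CPM.

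Cytosolic ribosomal protein genes were divided in direction. Of 73 tested, 32 rose, 21 fell and 20 were not called. Their median was 0.14 as fitted, 1.04 with the length correction and -0.073 with upper-quartile scaling, so that no direction is given. Their summed level was 55073 to 74301 CPM in WT and 67528 to 68486 CPM in AML. Rpl28 rose from 295, 389 and 393 to 1463, 1543 and 1531 CPM. Processed copies of these genes share their reads. Median gene length was 1781 bp for the cytosolic ribosomal list and 1552 bp for the respiratory chain list. It was 2703 bp for the mitochondrial ribosomal list and 2768 bp for the proteasome list. How far length accounts for the differences between these lists was not tested.

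Cell cycle lists held members that moved each way. Of 23 G2/M genes, 9 rose and 10 fell, and of 24 S phase genes, 7 rose and 14 fell (median -0.31; -0.16 with the length correction). The proliferation marker Mki67 went from 97.8, 111 and 101 to 329, 327 and 316 CPM, while Birc5 fell from 181, 177 and 186 to 57.9, 57.8 and 59.3 CPM. Mki67 has a gene model of 10061 bp, and its log2 fold change of 1.65 became 0.72 with the length correction. The opposite case is cyclin B2 (Ccnb2, 1531 bp), at -1.11 as fitted and 0.036 with the correction. Thymidylate synthase (Tyms) fell from 200, 213 and 217 to 57.5, 54.1 and 55.7 CPM, and the polymerase subunit Pole rose from 19.95, 24.1 and 19.9 to 89.3, 89.8 and 85.4 CPM.

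Genes of inflammatory signalling moved both ways. Of 23 genes of TLR4 and NF-kappaB signalling, 12 fell and 8 rose (median -0.36; -0.28 with the length correction), beside 43.3% lower and 42.2% higher over all tested genes. The 2 largest falls in the list were of chemokines. Ccl4 and Ccl3 fell from 306, 308 and 298 to 1.47, 1.06 and 0.975 CPM and from 334, 395 and 374 to 4.57, 4.47 and 3.86 CPM (log2 -8.02 ± 0.10 and -6.42 ± 0.10, adjusted p = 3.67e-20 and 3.21e-19). The inhibitors Nfkbia and Tnfaip3 fell from 949, 1060 and 1121 to 67.5, 66.2 and 66.0 CPM and from 83.6, 87.4 and 87.5 to 13.9, 13.3 and 16.2 CPM. The receptor Tlr4 rose from 3.43 to 6.16 CPM and its partner Ly96 fell from 10.7 to 0.636 CPM. Ager, which like Tlr4 is described as a receptor of calprotectin, rose from 0.593 to 7.49 CPM.

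The immediate early and heat shock list holds genes induced rapidly by growth factors and by handling of cells. They fell in 16 of 22 and rose in 4 (median -1.73; -1.34 with the length correction). Ier3 fell from 388, 471 and 475 to 35.7, 37.3 and 38.4 CPM, and Fos, Egr1 and Nr4a1 by 2.36, 2.13 and 3.02 on the log2 scale. Fosb rose instead, from 27.9 to 552 CPM, and Fosl2 from 9.40, 11.9 and 9.80 to 65.8, 72.3 and 67.5 CPM. The summed level of this list was 6471 to 8611 CPM in WT and 3073 to 3287 CPM in AML. Of 28 interferon response genes, 13 rose and 13 fell: Cxcl10 fell from 33.4, 37.4 and 41.6 to 0.302, 0.341 and 0.624 CPM and Oas2 rose from 5.68, 6.19 and 4.79 to 53.7, 53.4 and 51.1 CPM. Of 19 p53 target genes, 7 rose and 8 fell, and Cdkn1a, the inhibitor of cyclin-dependent kinases, fell from 168, 158 and 160 to 17.7, 16.7 and 17.2 CPM.

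Among 35 tested genes associated with leukemia, 25 rose and 8 fell (median 0.92; 0.37 with the length correction). Igf2bp3, which binds mRNA and is typical of fetal blood, went from 0.696, 0.665 and 1.11 to 43.9, 44.2 and 41.2 CPM (log2 5.71 ± 0.13, adjusted p = 1.35e-17), and Lin28b, another fetal RNA-binding protein, from 0.106 to 40.3 CPM. Igf2bp3 was at a mean of 24.8 CPM in NHD13 marrow and 39.4 CPM in KO marrow against 43.1 CPM in AML. Cbl and Cd33, an adaptor of receptor breakdown and a myeloid surface protein, went from 23.0, 24.2 and 20.2 to 286, 281 and 274 CPM and from 8.39, 7.89 and 7.70 to 83.4, 82.1 and 77.7 CPM. Of 18 glycolysis and hypoxia genes, 12 rose and 6 fell (median 0.55; 0.18 with the length correction): the first enzyme, Hk2, went from 28.8, 28.7 and 32.7 to 121, 125 and 121 CPM and the last, Ldha, fell from 1879, 2098 and 2179 to 605, 640 and 637 CPM.

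The difference between leukemic and normal cells followed the length of genes. In the decile of tested genes with the shortest models (53 to 1052 bp) the median log2 fold change was -1.39, and it rose without a break through -1.23, -0.69, -0.44, -0.17, 0.12, 0.45, 0.52 and 0.80 to 0.93 in the decile with the longest (9237 to 123179 bp). The share of genes called higher went from 20.4% to 66.3% and the share called lower from 60.4% to 22.9%. Between the longest and the shortest quartile the medians differed by 2.02. The same difference was 2.33 among genes with a mean of at least 10 CPM and 2.07 among protein-coding genes, and 0.51 among genes under 1 CPM. Genes at least 2-fold higher had a median length of 5154 bp, those at least 2-fold lower of 2401 bp, and genes that were not called of 3610 bp.

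**Figure D4:**
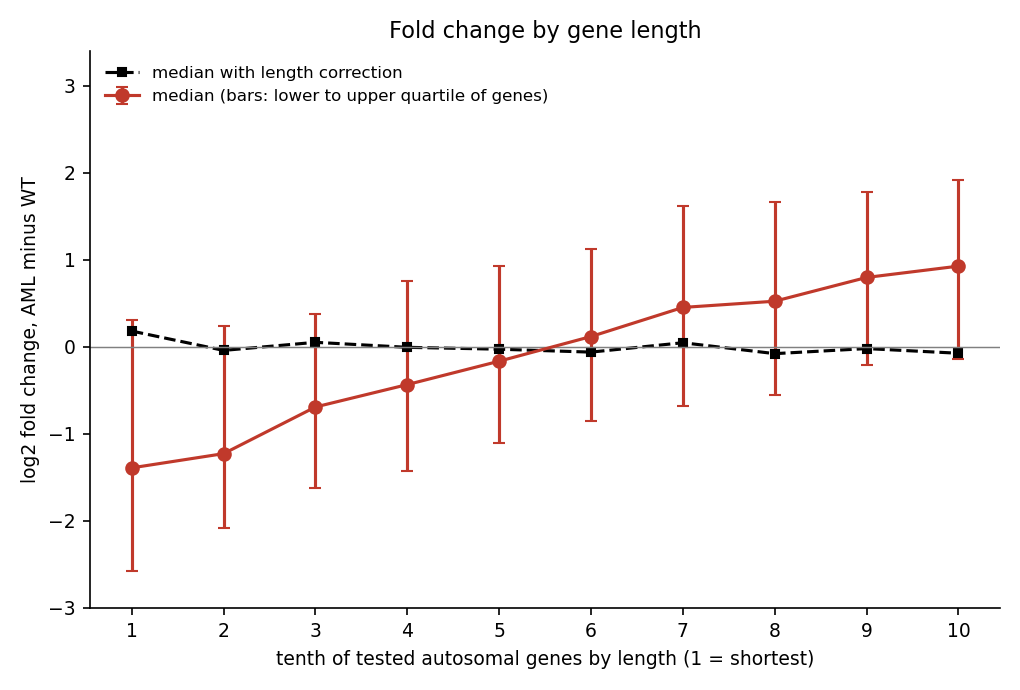
Median log2 fold change (AML minus WT, y axis) of the tested autosomal genes in deciles by gene length (x axis), with bars from the lower to the upper quartile of genes, and the medians after the length correction as a dashed line. The median climbs from -1.39 in the shortest decile to 0.93 in the longest, and the corrected medians stay near 0 by construction.

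The trend was present in the AML libraries and near 0 in the other 9. Each library was set against the mean of the WT libraries (of the other WT libraries for a WT library) as log2(CPM + 1), a scale that understates changes of low genes. The median difference of the longest quartile exceeded that of the shortest by 1.37, 1.35 and 1.28 on the log2 scale in the AML libraries. It differed from it by 0.0852, -0.0227 and -0.0662 in WT, by -0.0363 to -0.0700 in NHD13 and by -0.00750 to -0.0457 in KO. The 3 AML libraries thus stand apart from the rest. Organ, sort and disease stage differ in the same way, and RNA quality or library batch may do so too. These cannot be told apart here, and none was tested as a source of the trend. With a smooth trend of each library on log2 length entered as an offset, 5780 genes were higher and 5851 lower. Of the original calls, 4834 rises and 4845 falls kept their direction and their call, while 404 rises turned into falls and 305 falls into rises. Among genes called at least 2-fold, 3940 rises and 3564 falls kept direction and call.

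Fold changes were also set against chromosome and promoter composition. The median log2 fold change per chromosome ran from -0.47 on chromosome 13 to 0.26 on chromosome 17, and from -0.37 to 0.45 on the same chromosomes with the length correction. For 10348 genes a promoter sequence of 300 bases (250 before to 50 after the start, RefSeq, GRCm38.p6) was at hand. In quartile groups by GC content the medians were -0.27, -0.13, 0.11 and 0.45, and -0.16, -0.11, -0.04 and 0.15 with the length correction. Genes with GC-rich promoters were also longer, with a median length of 5186 bp in the top quartile and 3383 bp in the bottom quartile.

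Genes that differed were compared with the H3K36me3 ChIP-seq of leukemic spleen cells, 1 library of NHD13 mice with intact Setd2 and 1 of the NHD13/Setd2 KO. The authors' peak list of the NHD13 library holds 30953 broad peaks over 193 Mb and that of the KO library 16902 peaks over 28.4 Mb. Of the genes at least 2-fold higher in the AML RNA, 75.3% overlapped a peak of the NHD13 list and 49.3% one of the KO list. Of those at least 2-fold lower, 51.1% and 26.3% did, and of genes called but below 2-fold, 88.9% and 62.3%. Over all tested genes the shares were 69.2% and 43.6%. Longer genes have more room for a peak. The quartiles that follow are of gene model length, whereas peaks were counted over the whole span from gene start to gene end. They therefore do not hold the span fixed. Within the longest quartile, the shares in the KO list were 67.0% of the genes at least 2-fold higher and 28.2% of those at least 2-fold lower. Within the shortest quartile they were 18.02% and 19.1%. In the NHD13 list the shares were 85.6% and 46.6% in the longest quartile and 52.8% and 42.5% in the shortest. With 1 library per list, these shares carry no replicate error.

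A group of genes had at most a few reads in AML. A set drawn after their values had been seen holds 49 autosomal genes with a mean of at least 5 CPM in WT and at most 3 reads over the 3 AML libraries. It includes Dntt, Prss50, Slc25a21, Tmem98, Macrod2 and Siglech from above, and Tcf19 (31.7 ± 1.40 CPM in WT, SD, n = 3; 2 reads in AML), Oaf (23.9 ± 1.87 CPM; 2 reads), Ccdc91 (16.2 ± 0.96 CPM; 1 read) and Fer, a tyrosine kinase (11.9 ± 1.49 CPM; 3 reads). The ratios of WT to AML were 1147 for Tcf19 (95% counting interval 317 to 9473), 865 for Oaf (239 to 7151), 1176 for Ccdc91 (211 to 4.65e+04) and 288 for Fer (98.3 to 1400). In the KO marrow these 4 genes were at 5.82, 5.92, 2.77 and 5.01 CPM, so that each was detected in KO marrow. They do not stand for the whole set. Its members ranged in KO marrow from means of 0 CPM for Tmem98, 0.157 for Dntt and 0.297 for Siglech to 27.0 CPM for Slc25a21. Part of the set was thus near 0 in KO marrow as well. The reverse set, with at least 5 CPM in AML and at most 3 reads over WT, holds 17 genes.

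Promoter methylation of these genes was read from the authors' deposited table of differentially methylated regions between the KO marrow library and the AML library, 1 bisulfite library each. A table of AML against WT was not used here. A promoter sequence was at hand for 33 of the 49 genes. The authors' deposited table has a region over the promoter of 23 of the 33 (69.7%), and in 19 (57.6%) methylation was at least 30 percentage points higher in AML, with no gene 30 points lower. Tcf19 and its neighbour Cchcr1, both in the set, share 1 region, which is counted for each of them. In the authors' deposited table, regions overlapped 7.76% of all 10348 tested genes with a promoter, and 2.80% had such a gain. Among genes at least 2-fold lower the table gives 9.84% and 4.95%, and among genes at least 2-fold higher 9.34% and 2.66%, all from the authors' deposited table. The table gives no coverage, so that the depth behind each value is unknown.

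**Figure D5:**
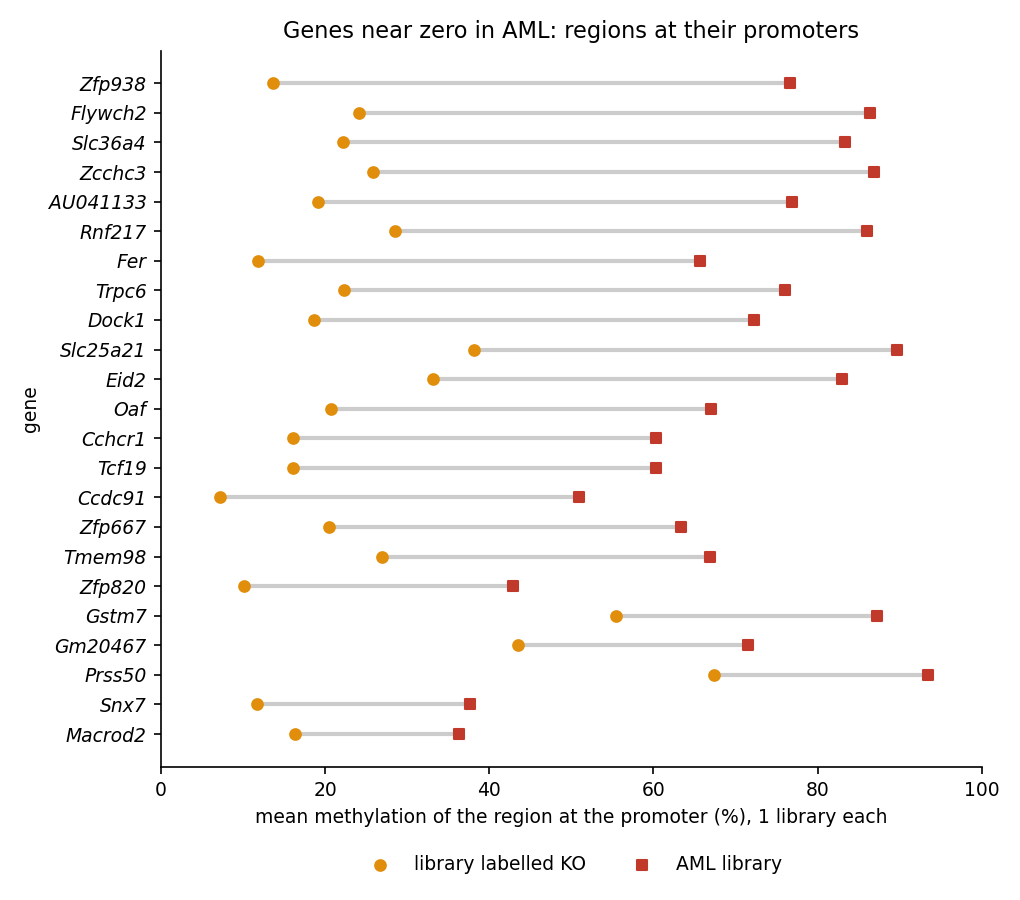
Mean methylation (%, x axis) of the region at the promoter in the KO library (orange circles) and the AML library (red squares) for the 23 genes near zero in AML that have a region in the authors' deposited table. Every region is higher in AML, from a gain of 19.96 points at Macrod2 to 63.0 points at Zfp938.

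The promoters of 4 of these genes and of S100a8, a gene that rose, are shown to compare their CpG content. Each sequence is 300 bases of RefSeq (GRCm38.p6), from 250 before to 50 after the start, 5′ to 3′ on the strand of the gene, with every CG in capitals. The motif CG, which reads the same on both strands, is in 99.4% of the 10348 promoters, with a median of 21 per promoter. The 33 promoters of genes near zero in AML had a median of 17, so that the 4 shown lie at or above the median of all promoters and above that of their set. Tcf19 lies at chr17:35516775-35517074 on the minus strand, Oaf at chr9:43239767-43240066 on the minus strand, Ccdc91 at chr6:147476115-147476414 on the plus strand, Fer at chr17:63863731-63864030 on the plus strand and S100a8 at chr3:90668821-90669120 on the plus strand.
Tcf19: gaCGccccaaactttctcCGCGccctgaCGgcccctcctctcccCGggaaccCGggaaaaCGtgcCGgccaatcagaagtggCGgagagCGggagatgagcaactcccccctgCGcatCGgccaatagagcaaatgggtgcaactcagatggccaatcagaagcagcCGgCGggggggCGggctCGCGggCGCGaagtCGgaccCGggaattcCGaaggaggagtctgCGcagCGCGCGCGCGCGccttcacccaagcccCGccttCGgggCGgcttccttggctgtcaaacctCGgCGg
Oaf: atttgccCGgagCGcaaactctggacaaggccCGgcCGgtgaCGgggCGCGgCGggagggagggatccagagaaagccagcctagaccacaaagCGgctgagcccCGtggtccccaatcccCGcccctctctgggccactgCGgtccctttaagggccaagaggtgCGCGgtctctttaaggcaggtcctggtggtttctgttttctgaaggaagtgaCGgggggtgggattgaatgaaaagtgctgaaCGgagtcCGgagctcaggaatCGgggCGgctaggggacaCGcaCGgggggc
Ccdc91: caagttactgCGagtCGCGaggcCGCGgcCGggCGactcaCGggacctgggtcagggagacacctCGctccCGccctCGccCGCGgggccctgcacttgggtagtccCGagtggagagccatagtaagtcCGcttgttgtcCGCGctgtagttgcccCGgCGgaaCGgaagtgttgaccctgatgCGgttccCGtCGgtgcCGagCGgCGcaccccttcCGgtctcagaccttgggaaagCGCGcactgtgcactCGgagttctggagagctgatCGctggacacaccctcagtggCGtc
Fer: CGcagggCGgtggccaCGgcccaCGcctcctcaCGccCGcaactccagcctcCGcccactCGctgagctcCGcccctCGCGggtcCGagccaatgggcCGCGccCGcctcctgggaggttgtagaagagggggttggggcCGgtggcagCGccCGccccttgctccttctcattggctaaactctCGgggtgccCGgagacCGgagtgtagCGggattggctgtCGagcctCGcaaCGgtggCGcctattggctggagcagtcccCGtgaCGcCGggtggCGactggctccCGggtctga
S100a8: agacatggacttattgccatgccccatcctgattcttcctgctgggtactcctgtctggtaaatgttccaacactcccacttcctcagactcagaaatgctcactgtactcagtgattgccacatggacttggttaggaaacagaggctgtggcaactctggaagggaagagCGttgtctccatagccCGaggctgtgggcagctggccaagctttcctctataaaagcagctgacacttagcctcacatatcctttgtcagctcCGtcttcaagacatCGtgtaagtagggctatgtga

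The sequences held 34 CG in Tcf19, 21 in Oaf, 32 in Ccdc91, 31 in Fer and 4 in S100a8. In the authors' deposited table the region over the Tcf19 promoter, which also covers the start of its neighbour Cchcr1, went from 16.1% methylation in KO to 60.3% in AML. Likewise, the authors' deposited table gives 20.7% and 67.1% at Oaf, 7.19% and 51.0% at Ccdc91 and 11.8% and 65.6% at Fer. The S100a8 region (chr3:90668993-90669785), which covers the end of the sequence shown, went the other way in the authors' deposited table, from 62.4% to 18.2%, a difference of -44.2 points. Other genes named above with a region at the promoter in the authors' deposited table lost methylation at Stfa1 (-30.5 points), Fcnb (-35.9), Cd177 (-24.6), Mki67 (-19.7), Ifitm1 (-27.9) and Ccl3 (-31.8) and gained it at Axl (41.6) and Erg (24.6). Of these, Stfa1, Fcnb, Cd177, Mki67, Axl and Erg were higher in AML than in WT and Ifitm1 and Ccl3 were lower, so that regions with lower methylation lay at genes that changed in either direction. Zic4, which had no count in WT and was expressed in AML, gained 41.7 points in the authors' deposited table. The RNA comparison is with WT and the methylation comparison with KO marrow, and a relation between them was not tested.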

How the data were processed

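Reads were counted per gene by the authors, who deposited 1 table of raw counts for 12 RNA-seq libraries. Per the submitters' processing notes, which name tools without roles, HISAT2 2.0.5, HTSeq 0.9.1, DESeq2 1.22.2, Bowtie2 2.2.9, SAMtools 1.7, MACS2 2.1.1.20160309, Bismark 0.19.0, Trimmomatic and deepTools were used, with mm10. A table of FPKM, also deposited by the authors, gave symbols and lengths. Peak lists deposited by the authors hold −log10 q, a score made from it and the fold enrichment of each broad peak. Methylation levels were deposited by the authors as the fraction per region, printed here in percent, with a summed score per region; the region caller is not named in the labels. Sides of that table were assigned by the order of groups in its name. This order was checked on 2467 regions shared with another table. Strand use in counting is not given either, so overlapping and antisense genes are uncertain. The labels call for sorting by flow cytometry and a NEBNext Ultra RNA kit.

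Genes were tested with edgeR 4.0.16 (R 4.3.3) on the counts of all 12 libraries: filterByExpr, TMM, 1 mean per group, the robust quasi-likelihood F test, two-sided, with 8 residual degrees of freedom and Benjamini-Hochberg adjustment over 16233 genes. CPM are per tested-gene total times TMM factor. Genes on X, Y and the mitochondrial genome were then left out. The length correction enters each library's lowess trend (span 0.3) of log2 CPM on log2 length, fitted on genes of at least 1 CPM, as an offset. Counting intervals are exact at 95% and, like the floor of 3 counts, cover counting error only. H3K36me3 peaks were counted where they overlap a gene by at least 1 bp. The procedure was checked on simulated data in which few genes changed and no length trend was present. That setting differs from these data, so the check does not cover them in this respect.

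The named genes are Setd2, S100a8, S100a9, Kit, the 12 that rose and 12 that fell most (adjusted p below 0.05, groups not overlapping, official symbol, higher group reaching 10 CPM), the 4 of each among the shortest quartile, and up to 4 members of each of 31 lists with the smallest p, of which part is printed. Other list members named were chosen after their values were seen. The members and lists were chosen with earlier results of these data known. The mitochondrially encoded list had no autosomal member. Alternatives were DESeq2 1.42.0, other scalings and filters, limma 3.58.1 on log2 FPKM, a replicate block and leaving out single libraries. A few genes counted in the lists are not reported here by name.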

Additional observations from a re-analysis of the deposited data

How the results depend on the processing

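Counts of called genes stayed within 1.5 times under all alternatives run, with 1 exception: on log2(FPKM + 1), limma called 2309 genes at least 2-fold lower. Upper-quartile scaling moved the median of all genes from -0.03 to -0.24 and gave 5359 higher and 6734 lower. Leaving out single libraries gave 5868 to 6078 higher and 5982 to 6150 lower, and 4183 to 4338 and 4158 to 4318 at 2-fold. The length trend of 2.02 was 0.81 without a low-count filter, 2.14 with a filter at 1 CPM, 1.14 on log2(FPKM + 1), 1.80 on log2(FPKM + 0.1), 2.33 at 10 CPM or more, and 1.90 to 2.06 without single libraries. The length correction removes it by construction (-0.075; -0.079 with the replicate block). It also turned the stroma list median to -0.65 (-0.64 with the block), Slc40a1 to -0.31 (-0.31) and Ccnb2 to 0.036 (0.036). Upper-quartile scaling turned the cytosolic ribosomal median to -0.073. Of 2556 values of 142 named genes under alternatives, 2552 kept direction and call. Most of these genes were picked for large or low-p differences in these same libraries, so such agreement was largely fixed by the choice. It also does not cover size: Kit, counted as kept, went from 1.10 to 0.22 on the log2 scale with the length correction. Of the genes at least 2-fold higher, 9.68% overlapped NHD13 peaks with −log10 q of at least 10 and 67.7% peaks over at least 10% of the gene (KO list 0.581% and 24.6%). For those at least 2-fold lower the shares were 2.85% and 45.0% (0.166% and 14.9%). The cause of these moves was not tested.

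Groups share replicate numbers, but same-numbered WT and AML libraries did not deviate together (correlations -0.0258, -0.139 and 0.0611). With the replicate block, 5928 genes were higher and 6061 lower, 4136 and 4186 at 2-fold, with a length trend of 2.03.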
